A study of Mus musculus with 20 samples.

Results

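The insulin-like growth factor binding proteins (IGFBPs) were examined in mouse liver as the 7 genes *Igfbp1* to *Igfbp7*. They were found by their symbols among the 54532 Ensembl genes of the count table, and all 7 were present. The livers came from 20 male C57BL/6 mice that had all been made obese by 12 weeks of high-fat feeding (HFD) before surgery. Mice then had a Sham operation or Roux-en-Y gastric bypass (RYGB, which routes food past most of the stomach and the upper small intestine) and ate chow or HFD for 8 weeks. The 4 groups are named Sham Chow and RYGB Chow for mice on chow, and Sham HFD and RYGB HFD for mice kept on HFD, with 5 mice and 1 library per mouse in each. Every group therefore shares the earlier obesity and an operation, and no group of lean mice that were never fed HFD was analysed here. By the study's methods the Sham HFD mice were heavier than the others, so that body weight and group cannot be told apart.

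IGFBPs are secreted proteins that hold IGF-I and IGF-II in blood and tissue, prolong their life and control their access to the IGF1 receptor. The liver makes most of the circulating IGF-I, and most of that travels in a complex of IGF-I, IGFBP-3 (or IGFBP-5) and the acid-labile subunit, encoded by *Igfals*. IGFBP-1 and IGFBP-2 form smaller complexes that can leave the circulation. Insulin represses hepatic *Igfbp1*, and *Igfbp2* is known as a liver transcript that responds to leptin and to nutritional state. IGFBP-7 is a distant relative that binds IGFs weakly and is best known in blood vessel walls.

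Total counts ran from 14604854 to 22537498 per mouse. All 6 hepatocyte markers (such as *Alb* and *Ttr*) were present in every group, with summed CPM (counts scaled to library size, with TMM factors) between 66393 and 117220. Their sum ran from 66393 to 78889 in Sham HFD and from 93309 to 112256 in RYGB HFD. Sham Chow (77089 to 97371) and RYGB Chow (69714 to 117220) overlapped both. *Alb* made up most of it, with means of 59965 CPM in Sham HFD and 83392 in RYGB HFD. Of the 6, 5 had a fitted log2 fold change above 0 for RYGB HFD over Sham HFD. *Ttr* was lower, with means of 5586 CPM in Sham HFD and 4084 in RYGB HFD. Tests are two-sided and by edgeR's quasi-likelihood method, fitted to all 4 groups at once. P-values were adjusted by the Benjamini-Hochberg procedure over the 12289 genes that reached 2 CPM in 3 or more mice. A gene is called changed at an adjusted p under 0.05. By this rule 4 of the 6 hepatocyte markers were higher in RYGB HFD than in Sham HFD (8.54% of tested genes) and 1 was lower (7.9%). In Sham HFD 3 were lower than in Sham Chow (10.7%) and 0 were higher (10.9%). Of the family, 6 members passed the filter of 2 CPM and *Igfbp6* did not. The animals behind the labels are separate mice, and the sources used here describe no molecular identifiers for the reads.

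Most of the family lies in pairs. On GRCm38 (positions from GENCODE M21), *Igfbp1* (ENSMUSG00000020429) occupies chromosome 11 from 7197782 to 7202546 on the plus strand and *Igfbp3* (ENSMUSG00000020427) occupies 7206086 to 7213923 on the minus strand, tail to tail with 3539 bases and 0 genes between them. *Igfbp2* (ENSMUSG00000039323; chromosome 1, 72824503 to 72852474, plus) and *Igfbp5* (ENSMUSG00000026185; 72857932 to 72874884, minus) face each other in the same way, 5457 bases apart with 0 genes between. *Igfbp4* (ENSMUSG00000017493) lies alone on chromosome 11 from 99041244 to 99054392, *Igfbp6* (ENSMUSG00000023046) on chromosome 15 from 102144362 to 102149511 and *Igfbp7* (ENSMUSG00000036256) on chromosome 5 from 77349240 to 77408041. The promoters of *Igfbp1*, *Igfbp2* and *Igfbp5* are shown because the first is the textbook insulin-repressed promoter of the family and the other pair belong to neighbouring genes whose transcripts differed in opposite directions. Each runs from 250 bases before to 50 bases after the RefSeq start (GRCm38.p6), 5′ to 3′ on the gene's strand. Capitals mark motifs found on either strand.
Igfbp1, chr11:7197537-7197836, plus strand: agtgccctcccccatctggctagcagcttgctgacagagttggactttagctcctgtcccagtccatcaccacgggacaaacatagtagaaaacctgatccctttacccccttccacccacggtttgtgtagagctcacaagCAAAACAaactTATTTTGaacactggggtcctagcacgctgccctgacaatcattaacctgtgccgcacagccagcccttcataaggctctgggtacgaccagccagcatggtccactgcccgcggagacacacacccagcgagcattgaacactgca
Igfbp2, chr1:72824230-72824529, plus strand: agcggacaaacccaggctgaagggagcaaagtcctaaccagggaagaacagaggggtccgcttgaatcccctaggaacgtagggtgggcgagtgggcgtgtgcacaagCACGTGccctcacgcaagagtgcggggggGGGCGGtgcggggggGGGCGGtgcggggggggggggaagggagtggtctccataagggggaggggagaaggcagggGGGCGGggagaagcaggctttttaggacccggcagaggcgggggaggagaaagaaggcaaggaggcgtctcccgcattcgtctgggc
Igfbp5, chr1:72874816-72875115, minus strand: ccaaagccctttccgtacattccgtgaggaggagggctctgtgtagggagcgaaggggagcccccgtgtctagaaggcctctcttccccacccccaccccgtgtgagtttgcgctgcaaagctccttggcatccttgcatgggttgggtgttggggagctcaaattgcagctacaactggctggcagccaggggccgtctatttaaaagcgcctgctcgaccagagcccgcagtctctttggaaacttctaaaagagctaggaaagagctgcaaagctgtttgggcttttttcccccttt

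The motifs searched, on both strands, were an insulin response element core, a FOXO core, an E-box, a TATA box, a GC box and a CCAAT box. *Igfbp1* holds the insulin response element core in both its forms, as CAAAACA at position -108 from the start and as CAAAATA on the other strand at -97. At least 1 of these forms is in 10.2% of the 32851 promoters of this length. *Igfbp2* holds the E-box CACGTG at -142, found in 7.15% of promoters, and the GC box GGGCGG, found in 35.7%, at -113, -98 and -37. *Igfbp5* and *Igfbp3* hold none of the motifs in this window. *Igfbp7* holds the GC box at -110, -96, -74 and -44. *Igfbp4* holds the TATA box TATAAA at -28, found in 13.6% of promoters. *Igfbp6* holds it at -148 and the CCAAT box, found in 37.4%, at -107 and -50. The FOXO core was searched only as GTAAACA, found in 3.65%, and that form is in none of the 7 windows. Other forms of FOXO site were not searched under that name. These matches describe letters and were not tested for binding.

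To compare members with each other, CPM was divided by the summed exon length in kb. On this scale *Igfbp4* and *Igfbp2* held most of the family's transcripts in every group. In Sham Chow *Igfbp4* reached 410 ± 49.0 CPM per kb (mean ± SD, n = 5 mice), and it reached 394 ± 20.9 in RYGB Chow, against 400 ± 10.6 in Sham HFD and 447 ± 31.8 in RYGB HFD. *Igfbp2* stood at 327 ± 86.2, 505 ± 141, 90.1 ± 17.6 and 617 ± 199 CPM per kb in the same order of groups. The ranges of this pair overlapped in all groups but Sham HFD, where *Igfbp2* lay below *Igfbp4* in every mouse.

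*Igfbp2* exceeded *Igfbp4* per kb in 1 of 5 Sham Chow, 3 RYGB Chow, 0 Sham HFD and 4 RYGB HFD mice. Its share of the family's summed level was 39.9% ± 6.08 in Sham Chow and 50.3% ± 7.67 in RYGB Chow, against 15.2% ± 2.45 in Sham HFD and 53.1% ± 7.41 in RYGB HFD. *Igfbp7* came next, except in Sham HFD replicates 2 and 5, where it stood above *Igfbp2*. Its level of 80.0 ± 6.06 CPM per kb in Sham HFD was within the spread of *Igfbp2* in that group. Below it, *Igfbp1*, *Igfbp3*, *Igfbp5* and *Igfbp6* followed in this order in all mice but Sham HFD replicates 2 and 4. In Sham HFD, *Igfbp1* (9.18 ± 3.33 CPM per kb) and *Igfbp3* (6.08 ± 1.02) overlapped in their ranges. The sum of all 7 was 808 ± 112 CPM per kb in Sham Chow and 989 ± 131 in RYGB Chow, against 591 ± 26.7 in Sham HFD and 1138 ± 217 in RYGB HFD. Lengths are those of the annotation and not of the transcripts that these livers used.

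**Figure D1:**
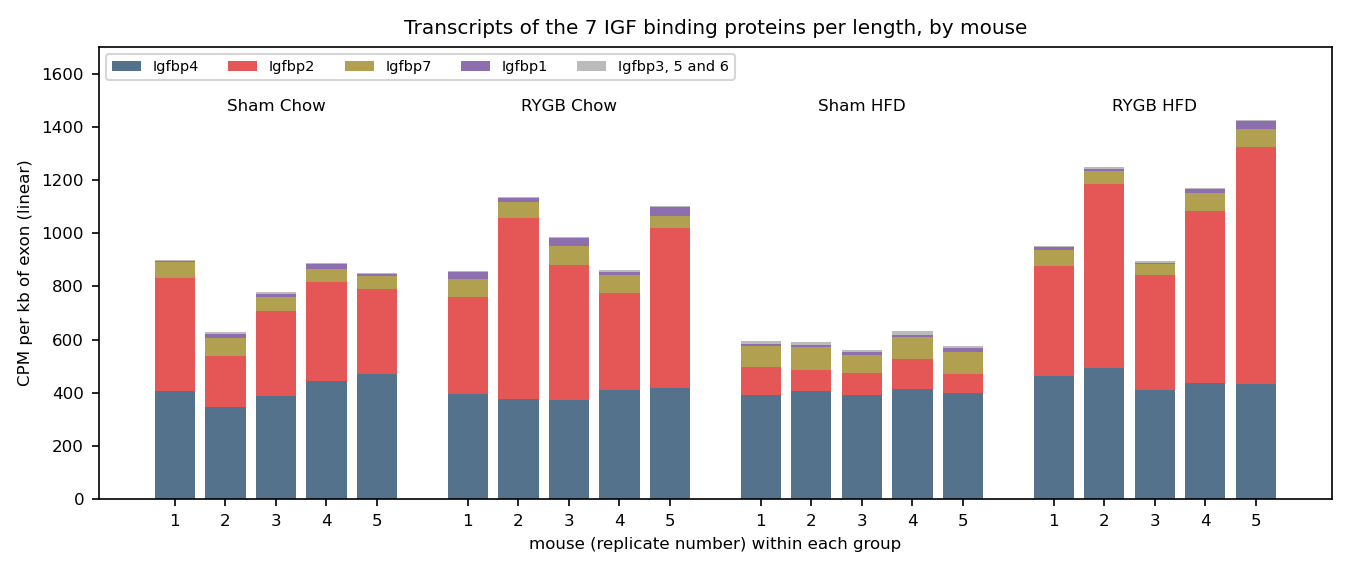
CPM per kb of exon (linear axis) of the 7 IGF binding proteins, stacked in 1 bar per mouse for the 4 groups of 5 mice. *Igfbp4* keeps a similar height in all 20 bars, while the *Igfbp2* segment is shortest in the 5 Sham HFD mice and tallest in RYGB HFD replicate 5.

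The contrasts ask what surgery does on each diet and what diet does after each operation. They are called here surgery on chow (RYGB Chow over Sham Chow), surgery on HFD (RYGB HFD over Sham HFD), diet after Sham (Sham HFD over Sham Chow) and diet after RYGB (RYGB HFD over RYGB Chow). For surgery on HFD, 4 of the 6 tested members were called, against 16.4% of all tested genes. *Igfbp2* was higher in RYGB HFD (8.54% of tested genes were) and *Igfbp3*, *Igfbp5* and *Igfbp7* were lower (7.9%). For diet after Sham, 4 of 6 were again called, against 21.6% of tested genes. *Igfbp2* was lower in Sham HFD (10.7%) and *Igfbp3*, *Igfbp5* and *Igfbp7* were higher (10.9%). These contrasts share the 5 Sham HFD mice, so their opposite signs are not independent of each other. The mice of the groups did not overlap for 2 members in the former (14.7% of tested genes) and 4 in the latter (16.5%). The family's median log2 fold change was -0.18 in the former and 0.26 in the latter, and the median of all tested genes lay within 0.01 of 0 in each.

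Surgery on chow called 0 of 6 members with edgeR, DESeq2 and limma-voom, against 0.057% of tested genes with edgeR. At an unadjusted p under 0.05, edgeR gave 3 members, DESeq2 3 and limma-voom 2. Diet after RYGB also called 0 of 6 with each tool (3.65% of tested genes with edgeR), with 2 members at an unadjusted p under 0.05 in each. The mice of the groups overlapped for every member in surgery on chow, where 1.33% of tested genes did not, and in diet after RYGB (5.05%). The surgery by diet interaction is the log2 fold change of diet after RYGB less that of diet after Sham. It called 3 of 6 members, *Igfbp2*, *Igfbp3* and *Igfbp7*, against 5.06% of tested genes, with *Igfbp2* above 0 (2.48%) and the other pair below (2.58%). The sets that the study defines by unadjusted p-values under 0.05 with DESeq2 were rebuilt here with edgeR, and also hold members. RYGB-induced genes, changed in the same direction by surgery on both diets (2.85% of tested genes), included *Igfbp2*, higher, and *Igfbp5*, lower. HFD-induced genes (6.9%) included *Igfbp5*, higher. The study itself reports *Igfbp2* as higher and *Igfbp5* as lower after RYGB.

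**Figure D2:**
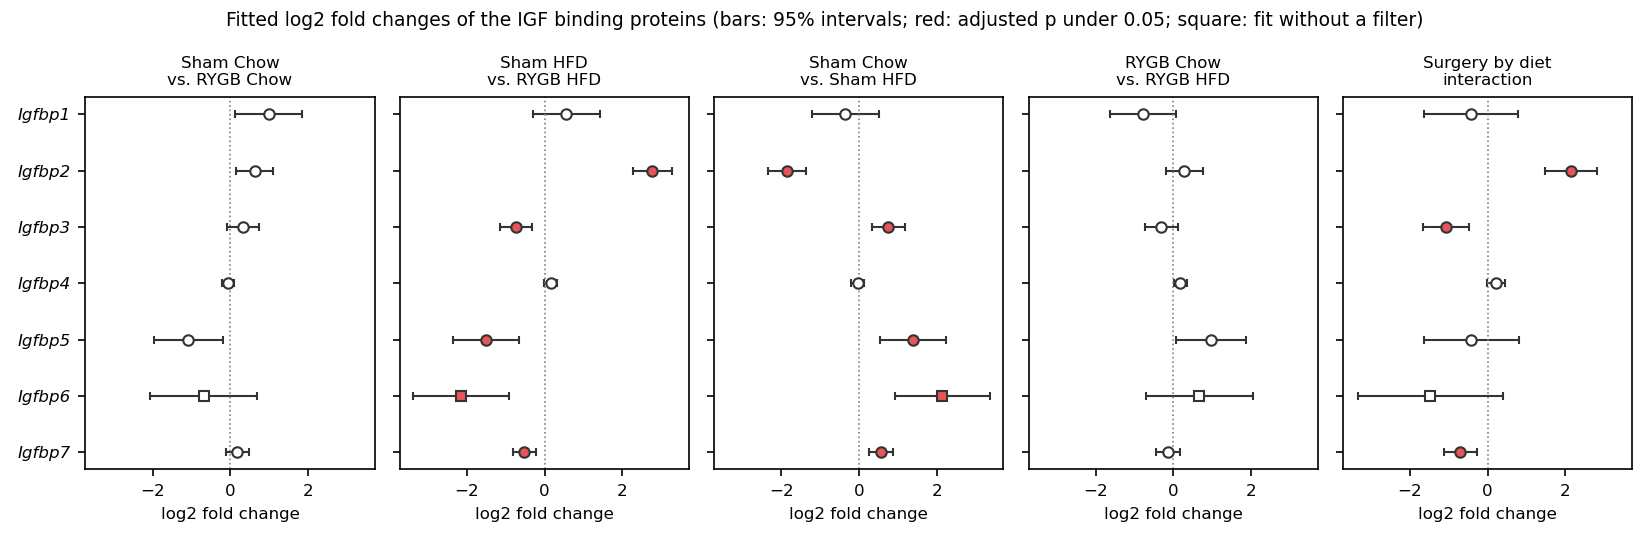
Fitted log2 fold changes (x axis) of the 7 members (rows) in the 4 contrasts and the surgery by diet interaction, with 95% intervals as bars. Filled red symbols have an adjusted p under 0.05, and the square marks *Igfbp6*, fitted without the filter on low counts. *Igfbp2* alone lies to the right among the called members of surgery on HFD, at 2.78.

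*Igfbp2*, which encodes a binding protein that prefers IGF-II, had the largest difference of the family. Its CPM was 787, 359, 595, 691 and 588 in Sham Chow mice 1 to 5, and 675, 1262, 943, 677 and 1111 in RYGB Chow. It was 196, 151, 151, 205 and 129 in Sham HFD, and 765, 1283, 802, 1195 and 1653 in RYGB HFD. Every Sham HFD mouse lay below every mouse of the other 3 groups, while Sham Chow and RYGB Chow overlapped, as did RYGB Chow and RYGB HFD. Its log2 fold change for surgery on HFD was 2.78 (standard error 0.24, 6.85-fold higher, edgeR adjusted p = 5.07e-07). For diet after Sham it fell by 1.86 (standard error 0.23, 3.63-fold lower, edgeR adjusted p = 2.05e-05). The exact permutation test gave its smallest possible two-sided p of 0.00794 in these contrasts (0.0541 and 0.0480 after adjustment over the tested genes).

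Surgery on chow gave *Igfbp2* a log2 fold change of 0.63 (95% interval 0.15 to 1.10, edgeR adjusted p = 0.308), and diet after RYGB one of 0.29 (-0.18 to 0.76, adjusted p = 0.537). The interaction was 2.15 (standard error 0.32, edgeR adjusted p = 9.15e-04). In the fits that left out 1 mouse each, the 3 called values of *Igfbp2* kept their calls, and surgery on HFD ran from 2.60 to 2.89. Over the 20 mice, the genes whose log2(CPM + 0.5) was most like it were *Cyp2c67*, a cytochrome P450 (Pearson r = 0.94), *Fetub*, which encodes the secreted fetuin-B (0.93), and *Avpr1a*, the vasopressin 1A receptor (0.93). Deviations from the group means gave these genes 0.63, 0.59 and 0.61. Such values describe mice that share groups, and no p is given for them.

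**Figure D3:**
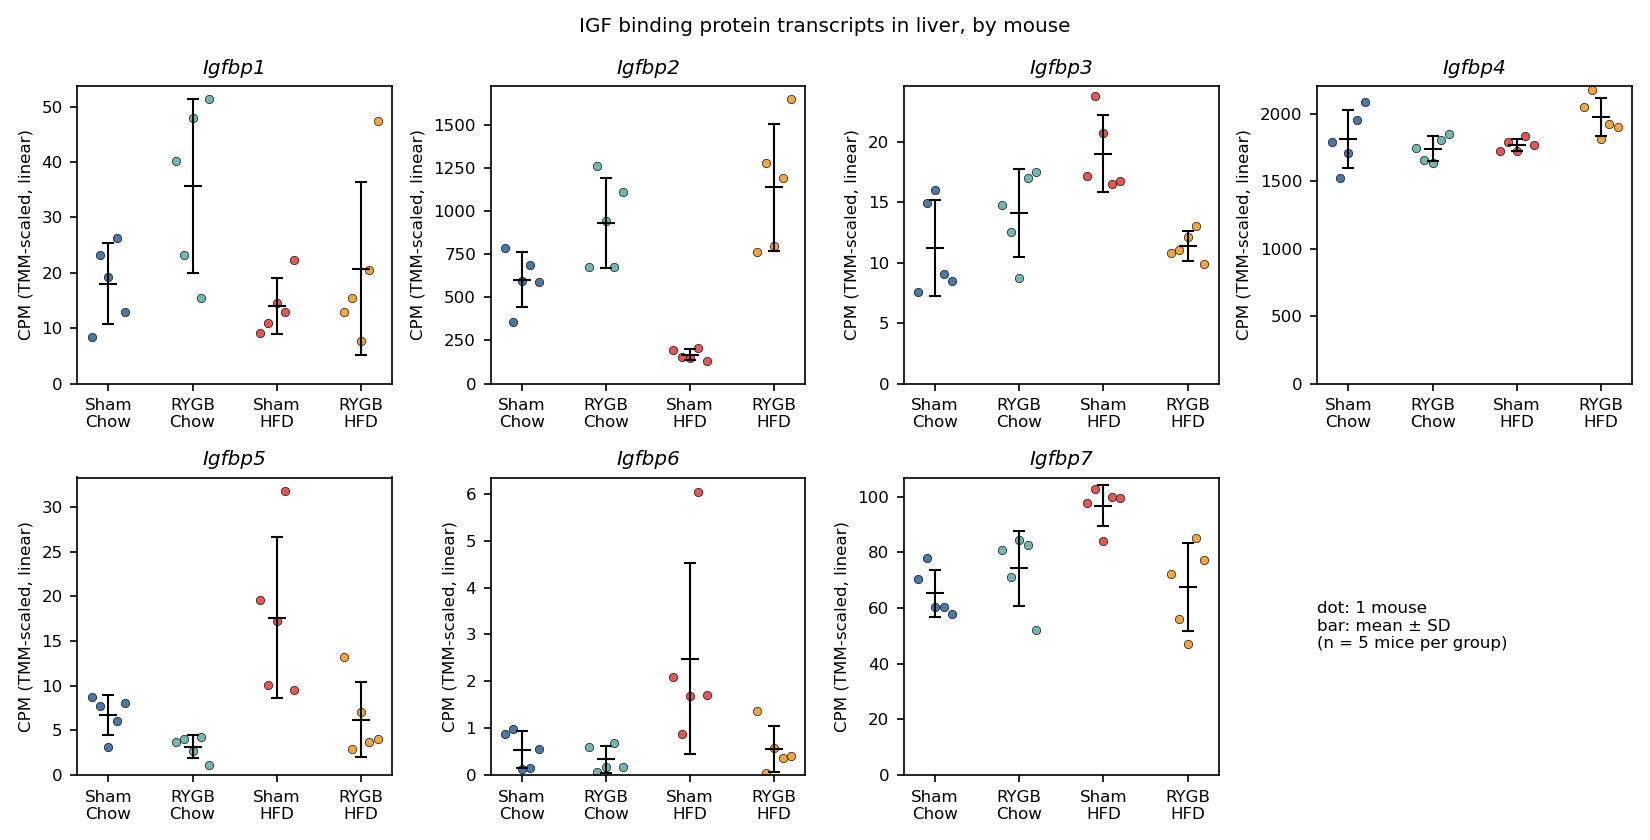
CPM (linear axes from 0) of each of the 7 members in the 4 groups, with 1 dot per mouse and the mean ± SD of 5 mice as a bar. *Igfbp2* is low and *Igfbp3* and *Igfbp7* are high in Sham HFD, while *Igfbp4* has nearly level means.

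*Igfbp1*, the insulin-repressed member, varied widely among mice of a group. Its CPM was 8.40, 23.2, 19.3, 26.3 and 12.9 in Sham Chow mice 1 to 5, and 40.1, 23.2, 47.9, 15.4 and 51.4 in RYGB Chow. It was 9.16, 11.0, 14.6, 12.9 and 22.3 in Sham HFD, and 12.9, 15.5, 7.61, 20.5 and 47.4 in RYGB HFD. All groups overlapped, and RYGB HFD replicate 5 stood apart from the other 4 mice of its group. Surgery on chow gave a log2 fold change of 0.99 (95% interval 0.13 to 1.84, edgeR adjusted p = 0.386) and surgery on HFD 0.55 (-0.31 to 1.42, adjusted p = 0.394). Without RYGB HFD replicate 5 the latter was 0.00. Diet gave -0.35 (-1.22 to 0.51, edgeR adjusted p = 0.574) after Sham and -0.78 (-1.63 to 0.07, adjusted p = 0.313) after RYGB. A 2-fold difference in *Igfbp1* lies within all 4 intervals, so that its absence is not shown. Its most alike genes were *Tmem82* (r = 0.80 and 0.79 on deviations from group means), *Vdac3-ps1*, a pseudogene whose reads can come from its parent gene (0.77 and 0.67), and *Cyp4a14*, a fatty acid hydroxylase induced by PPAR-alpha (0.77 and 0.66).

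*Igfbp4*, whose product inhibits IGF action until the protease PAPP-A cleaves it, had the most counts of the family, from 27390 to 41733 per mouse. Its CPM was 1792, 1526, 1706, 1955 and 2083 in Sham Chow mice 1 to 5, and 1742, 1658, 1637, 1808 and 1850 in RYGB Chow. It was 1722, 1788, 1726, 1835 and 1769 in Sham HFD, and 2051, 2172, 1812, 1923 and 1904 in RYGB HFD. All groups overlapped. Its 95% intervals on the log2 scale were -0.22 to 0.10 for surgery on chow and -0.01 to 0.32 for surgery on HFD. They were -0.20 to 0.13 for diet after Sham and 0.02 to 0.34 for diet after RYGB. None of these passed (edgeR adjusted p = 0.836, 0.178, 0.772 and 0.215), and the bound farthest from 0 was 0.34 on the log2 scale. *Naglu*, a lysosomal enzyme of heparan sulfate breakdown, had the most alike pattern (r = 0.79 and 0.73 on deviations), before the non-coding *C920006O11Rik* (0.78 and 0.77) and *Dcdc2b* (0.77 and 0.79).

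*Igfbp3*, the main carrier of IGF-I in blood, moved in the opposite direction to *Igfbp2* in the Sham HFD contrasts. Its CPM was 7.58, 15.0, 16.0, 9.07 and 8.49 in Sham Chow mice 1 to 5, and 14.8, 12.5, 8.73, 17.0 and 17.5 in RYGB Chow. It was 17.2, 23.8, 20.8, 16.5 and 16.8 in Sham HFD, and 10.8, 11.0, 12.1, 13.1 and 9.90 in RYGB HFD. Every Sham HFD mouse lay above every Sham Chow and RYGB HFD mouse. Its log2 fold change was 0.76 for diet after Sham (standard error 0.20, edgeR adjusted p = 0.0112) and -0.74 for surgery on HFD (standard error 0.20, adjusted p = 0.0150). Surgery on chow gave 0.33 (95% interval -0.10 to 0.75) and diet after RYGB -0.31 (-0.73 to 0.11).

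The interaction of *Igfbp3* was -1.07 (standard error 0.29, edgeR adjusted p = 0.0343). It kept its sign in all 20 fits that left out 1 mouse, but its adjusted p ran from 0.0122 to 0.0666 and the call was lost in 11 of them. Those were the fits without Sham Chow replicate 1, 4 or 5, RYGB Chow replicate 1, 4 or 5, Sham HFD replicate 2 or 3, or RYGB HFD replicate 1, 2 or 5. Its most alike genes were *Pcolce*, a procollagen processing enhancer (r = 0.81 and 0.72 on deviations from group means), *Zfp995*, a zinc finger gene (0.80 and 0.65), and *Adamts2*, a procollagen protease (0.80 and 0.64).

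*Igfbp5*, which encodes a matrix-bound member that is often made by mesenchymal cells, was also highest in Sham HFD. Its CPM was 8.69, 7.76, 3.10, 6.00 and 8.00 in Sham Chow mice 1 to 5, and 3.70, 4.04, 2.64, 4.30 and 1.13 in RYGB Chow. It was 19.5, 10.03, 17.2, 31.8 and 9.51 in Sham HFD, and 13.2, 2.86, 7.09, 3.73 and 4.05 in RYGB HFD. All Sham HFD mice lay above all Sham Chow mice, and RYGB HFD replicate 1 overlapped with Sham HFD. Its log2 fold change was 1.39 for diet after Sham (standard error 0.41, edgeR adjusted p = 0.0190) and -1.50 for surgery on HFD (standard error 0.41, adjusted p = 0.0149). Both calls depended on Sham HFD replicate 4, the highest mouse. Without it the values were 1.07 (edgeR adjusted p = 0.0720) and -1.18 (adjusted p = 0.0566). Without Sham Chow replicate 3 the former was 1.20 (edgeR adjusted p = 0.0532).

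Surgery on chow gave *Igfbp5* -1.08 (95% interval -1.97 to -0.18, edgeR adjusted p = 0.358) and diet after RYGB 0.96 (0.06 to 1.86, adjusted p = 0.231), at 20 to 242 counts per mouse in these groups and Sham Chow. Its interaction of -0.42 had an interval of -1.65 to 0.80. Over the 20 mice, *Igfbp2* and *Igfbp5*, which lie next to each other, gave r = -0.74, and -0.24 on deviations from group means. *Igfbp1* and *Igfbp3*, the other neighbours, gave -0.09 over the mice. The genes most like *Igfbp5* were *Upk3b*, a mesothelial marker (r = 0.89 and 0.78 on deviations), *Parva*, which links integrins to actin (0.88 and 0.81), and *Kifap3*, a kinesin adaptor (0.88 and 0.69).

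*Igfbp6*, which encodes the member with the strongest preference for IGF-II, was near the limit of these data. It had 2 counts in its lowest Sham Chow mouse, 1 in its lowest RYGB Chow and RYGB HFD mice and 101 in its highest Sham HFD mouse. Its CPM was 0.869, 0.983, 0.139, 0.143 and 0.546 in Sham Chow mice 1 to 5, and 0.599, 0.0539, 0.165, 0.684 and 0.170 in RYGB Chow. It was 2.09, 0.878, 1.69, 6.05 and 1.71 in Sham HFD, and 1.36, 0.0521, 0.577, 0.355 and 0.399 in RYGB HFD. Sham HFD held the 4 highest mice, and its replicate 2 overlapped with Sham Chow and RYGB HFD. It was not tested under the filter. Fitted without a filter, its log2 fold change was 2.15 for diet after Sham (standard error 0.60, edgeR adjusted p = 0.0227) and -2.15 for surgery on HFD (standard error 0.61, adjusted p = 0.0269). These p-values were adjusted over the 28411 genes of that fit. *Igfbp6* was not fitted with mice left out, so how far these values rest on Sham HFD replicate 4, at 6.05 CPM, was not tested.

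The summed CPM of 7 fibroblast and mesothelial markers was, like *Igfbp5* and *Igfbp6*, highest in Sham HFD. It ran from 14.1 to 20.1 in Sham Chow and 14.5 to 23.2 in RYGB Chow, against 27.3 to 39.4 in Sham HFD and 15.3 to 20.7 in RYGB HFD, with 0 markers absent in any group. Of the 5 that were tested, 2 were higher in Sham HFD than in Sham Chow (10.9% of tested genes). For surgery on HFD 3 were lower (7.9%). The fibroblast marker *Thy1*, which was not tested, had a lower mean in Sham HFD (0.876 CPM) than in Sham Chow (0.931) and RYGB HFD (1.21). *Pdgfra* had nearly the same mean in RYGB Chow (7.37 CPM) as in Sham HFD (7.69). Sham HFD replicate 4 had the highest *Igfbp5*, the highest *Igfbp6* and the highest marker sum of the 20 mice. Stellate cell markers summed to 181 to 228, 175 to 302, 287 to 368 and 232 to 394 CPM in that order of groups. Of these 7 markers, 6 were higher in Sham HFD than in Sham Chow (10.9% of tested genes). For surgery on HFD 0 were called (16.4% of tested genes), and edgeR gave 2 at an unadjusted p under 0.05. The part of these cells in the differences of *Igfbp3*, *Igfbp5* and *Igfbp6* was not tested. Kupffer cell markers summed to 88.1 to 231, 178 to 427, 198 to 271 and 186 to 321 CPM in that order too. Of these 5 markers, 2 were higher in Sham HFD than in Sham Chow (10.9% of tested genes). For surgery on chow 0 were called (0.057%), and edgeR gave 5 at an unadjusted p under 0.05. In whole liver, fewer cells of a type and less RNA per cell cannot be told apart.

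*Igfbp7*, the weak IGF binder of vessel walls, was again highest in Sham HFD. Its CPM was 70.3, 77.8, 60.4, 60.5 and 57.7 in Sham Chow mice 1 to 5, and 80.9, 71.1, 84.5, 82.7 and 52.2 in RYGB Chow. It was 97.6, 103, 84.0, 99.7 and 99.5 in Sham HFD, and 72.4, 56.0, 47.0, 85.0 and 77.4 in RYGB HFD. All Sham HFD mice lay above all Sham Chow mice, and RYGB HFD replicate 4 lay above the lowest Sham HFD mouse. Its log2 fold change was 0.56 for diet after Sham (standard error 0.14, 1.48-fold, edgeR adjusted p = 0.00870) and -0.52 for surgery on HFD (standard error 0.14, 1.43-fold lower, adjusted p = 0.0169). Surgery on chow gave 0.18 (95% interval -0.12 to 0.49) and diet after RYGB -0.14 (-0.44 to 0.16). Its interaction of -0.70 (standard error 0.20, edgeR adjusted p = 0.0491) was called only narrowly. The call held without Sham Chow replicate 2, RYGB Chow replicate 5, or RYGB HFD replicate 4 or 5, and was lost without any of the other 16 mice, over an adjusted p from 0.0147 to 0.0918.

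Endothelial markers were lowest in the mice with the least *Igfbp7*. The summed CPM of the 11 sinusoidal and other endothelial markers was 140 in RYGB Chow replicate 5, 158 in RYGB HFD replicate 3 and 204 in RYGB HFD replicate 2, where *Igfbp7* was 52.2, 47.0 and 56.0. The other 17 mice had marker sums from 242 to 494. For surgery on HFD, 0 of 7 sinusoidal and 0 of 4 other endothelial markers were called with edgeR (2 and 0 at an unadjusted p under 0.05). Of all tested genes, 16.4% were called there. For diet after Sham the counts of called markers were 0 and 1 (1 and 2 at an unadjusted p under 0.05), against 21.6% of tested genes. All 7 sinusoidal and all 4 other markers had log2 fold changes above 0 there, with medians of 0.24 and 0.65. For surgery on HFD 1 of 7 and 1 of 4 were above 0, with medians of -0.31 and -0.04. The part of endothelial cells in the *Igfbp7* differences was not tested. *Igfbp7* overlaps *Polr2b* on the opposite strand by 85 bases of exon and spans the antisense gene *Gm34648*, which had at most 4 counts. The strand setting of the counting is not given in the sources used here, so reads in the overlap cannot be told apart. *Polr2b* itself had log2 fold changes of -0.02 for diet after Sham and 0.01 for surgery on HFD. The genes most like *Igfbp7* were *Srgn*, the proteoglycan serglycin of blood and endothelial cells (r = 0.91 and 0.86 on deviations from group means), *Rgl1*, a Ral exchange factor (0.89 and 0.86), and *Lhfpl2* (0.88 and 0.85).

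**Figure D4:**
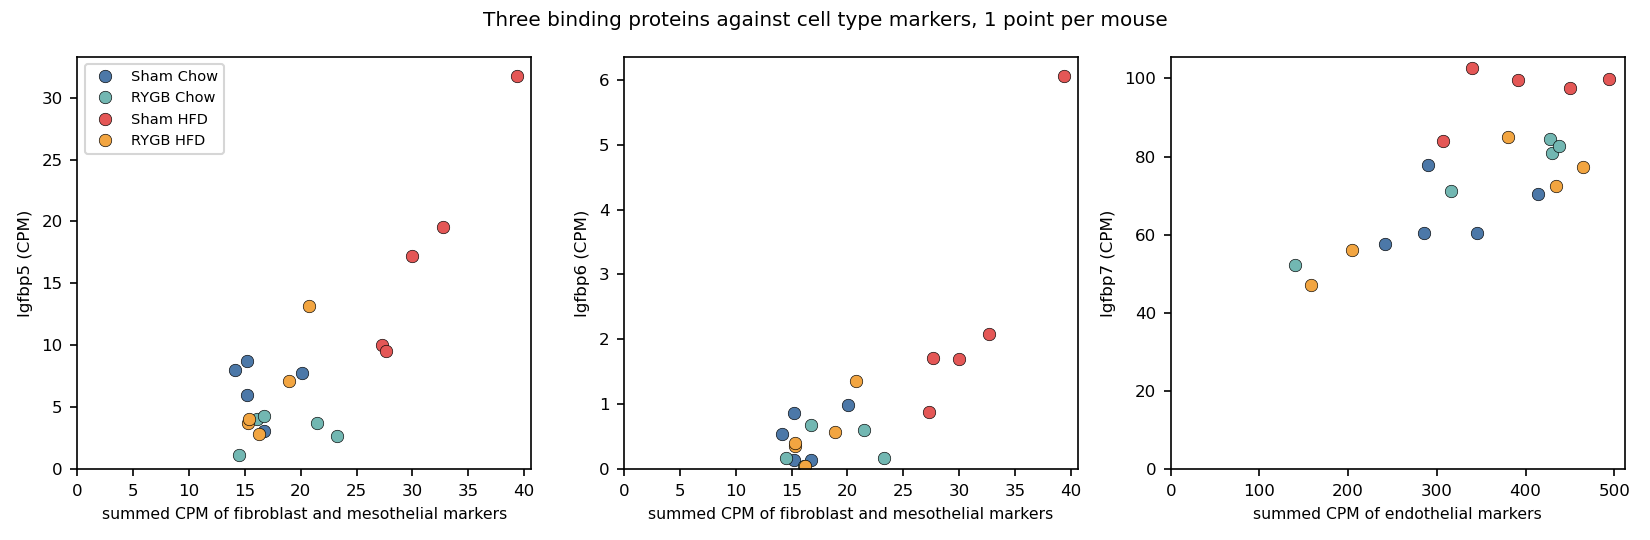
CPM of *Igfbp5* (left), *Igfbp6* (middle) and *Igfbp7* (right) against the summed CPM of fibroblast and mesothelial markers (left and middle) or endothelial markers (right), with linear axes and 1 point per mouse in the colour of its group. Sham HFD replicate 4 is the topmost point at left and middle, at 31.8 and 6.05 CPM, and 4 of the 5 Sham HFD mice lie above all others at right.

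The partners of the binding proteins were taken from a list of 7 ligand, carrier and receptor genes, of which 6 were tested. *Igf1*, the ligand, and *Igfals*, the acid-labile subunit, were lower in Sham HFD than in Sham Chow and higher in RYGB HFD than in Sham HFD. In Sham Chow *Igf1* stood at 686 ± 62.9 CPM (SD, n = 5), and it stood at 549 ± 64.5 in RYGB Chow, against 459 ± 75.2 in Sham HFD and 624 ± 51.5 in RYGB HFD. *Igfals* stood at 143 ± 20.6, 118 ± 23.6, 105 ± 13.6 and 143 ± 12.7 CPM. For *Igf1* the log2 fold change was -0.58 for diet after Sham (edgeR adjusted p = 6.97e-04), 0.44 for surgery on HFD (adjusted p = 0.00588) and 0.77 for the interaction (adjusted p = 0.00597).

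*Igfals* had -0.44 (edgeR adjusted p = 0.0162), 0.45 (adjusted p = 0.0169) and 0.72 (adjusted p = 0.0217) in the same order. The *Igfals* call was lost for diet after Sham without Sham Chow replicate 5 (edgeR adjusted p = 0.0591) or Sham HFD replicate 5 (0.0502). For surgery on HFD it was lost without Sham HFD replicate 5 (edgeR adjusted p = 0.0534) or RYGB HFD replicate 2 (0.0550). In the interaction it was lost without Sham Chow replicate 5 (edgeR adjusted p = 0.0501). With library sizes alone in place of TMM factors it was lost in all 3, at an adjusted p of up to 0.0820. Sham HFD thus held the lowest mean of the 4 groups for *Igf1* and *Igfals* and the highest for *Igfbp3*.

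**Figure D5:**
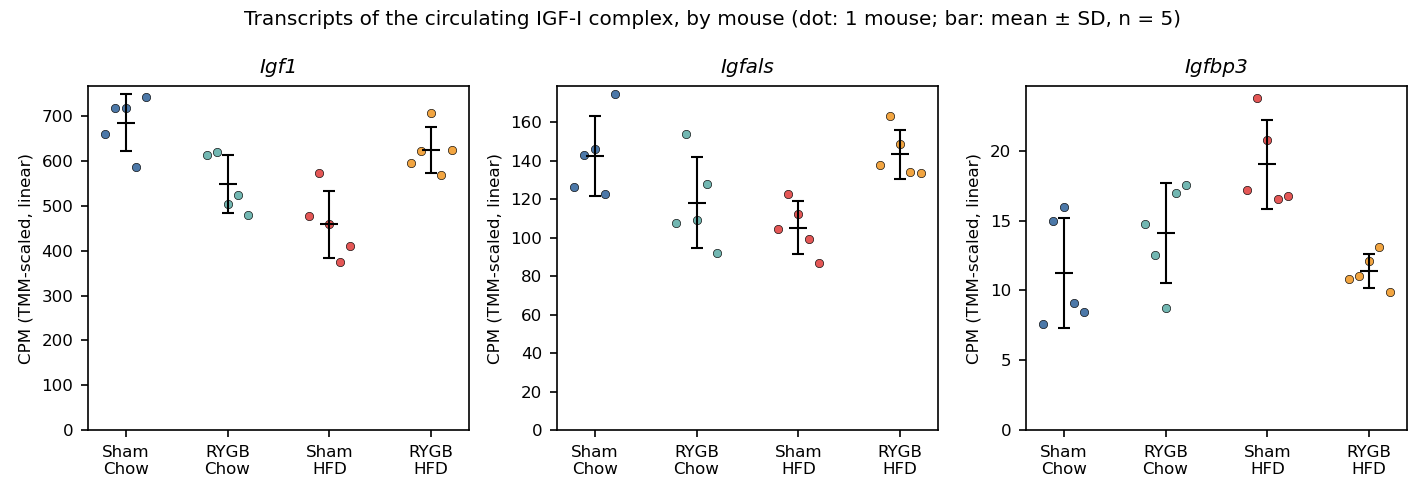
CPM (linear axes from 0) of the genes of the circulating IGF-I complex, *Igf1*, *Igfals* and *Igfbp3*, with 1 dot per mouse and the mean ± SD of 5 mice per group as a bar. *Igf1* and *Igfals* have their lowest mean in Sham HFD, at 459 and 105 CPM, where *Igfbp3* has its highest, at 19.0 CPM.

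The receptors did not pass in any contrast. *Igf1r* was low, with group means from 2.17 to 3.34 CPM, and its largest log2 fold change was 0.60 for diet after Sham (95% interval 0.06 to 1.14, edgeR adjusted p = 0.102). *Igf2r*, which clears IGF-II, had group means from 53.1 to 60.1 CPM. *Insr*, the insulin receptor, had 0.20 for surgery on HFD (0.05 to 0.35, edgeR adjusted p = 0.0661) and an interaction of 0.30 (0.08 to 0.52, adjusted p = 0.0981). *Ghr*, the growth hormone receptor, had its largest value for diet after RYGB, at 0.21 (0.01 to 0.41, edgeR adjusted p = 0.244). *Igf2* had at most 1 count in any mouse.

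Among 12 proteases that cut IGFBPs and their inhibitors, 6 were tested. For surgery on HFD, 1 was higher in RYGB HFD (8.54% of all tested genes were) and 3 were lower (7.9%). *Plg*, which encodes plasminogen, was higher by 0.48 on the log2 scale (edgeR adjusted p = 2.62e-04), and *Ctsd*, cathepsin D, was lower at -0.28 (adjusted p = 0.0143). *Mmp2*, a gelatinase of mesenchymal cells, had -0.77 (edgeR adjusted p = 0.0256) in that contrast. That call was lost without Sham HFD replicate 2, 4 or 5 or RYGB HFD replicate 1 or 5 (adjusted p of up to 0.0547), and with no filter on low counts (0.0559). For diet after Sham, *Mmp2* was higher by 1.06 (edgeR adjusted p = 0.00318) and was 1 of 2 called, both higher (10.9% of tested genes). Diet after RYGB called *Plg* alone, higher by 0.30 (edgeR adjusted p = 0.0330, 3.65% of tested genes called). That call was lost without RYGB Chow replicate 1, 3 or 4 or RYGB HFD replicate 2, 3, 4 or 5 (adjusted p of up to 0.0771), and with no filter, only the 2 groups compared or the replicate block (up to 0.141). Surgery on chow called 0 of the 6 with edgeR, with 0 at an unadjusted p under 0.05. The list's median log2 fold change for surgery on HFD was -0.21, against 0.01 for all tested genes.

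Of 12 relatives that carry an IGFBP domain, 6 were tested, and their median log2 fold change for surgery on HFD was -0.58. In that contrast 2 were lower (7.9% of tested genes) and 0 higher. *Ccn4*, a matricellular protein, had -1.26 (edgeR adjusted p = 0.0181). *Htra1*, a secreted serine protease that stands in the protease list too, had -1.33 (edgeR adjusted p = 0.0309). The *Htra1* call was lost without Sham HFD replicate 1 or 4 or RYGB HFD replicate 2, 3 or 4, at an adjusted p of up to 0.0889, and with the replicate block (0.0565). For diet after Sham, 1 of the 6 relatives was higher (10.9% of tested genes) and 0 lower. It was *Htra3*, a relative of *Htra1*, at 1.04 (edgeR adjusted p = 0.0259), and its call was lost without Sham Chow replicate 1, 3 or 5 or Sham HFD replicate 2 or 4 (adjusted p of up to 0.0722).

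Of 9 liver genes that respond to insulin and fasting, all 9 were tested. They are given beside *Igfbp1*, which responds to the same cues. For surgery on HFD, 2 were higher (8.54% of tested genes) and 1 lower (7.9%), and for diet after Sham 2 were higher (10.9%) and 1 lower (10.7%). The higher pair for surgery on HFD were *Irs2*, an insulin receptor substrate, at 0.68 (edgeR adjusted p = 0.0206), and *Foxo1*, a transcription factor that insulin inhibits, at 0.42 (adjusted p = 0.0254). The *Irs2* call was lost without Sham HFD replicate 1, 2 or 4 or RYGB HFD replicate 2 or 4 (adjusted p of up to 0.0630) and with library sizes alone (0.0736). The *Foxo1* call was lost without Sham HFD replicate 2, 3 or 5 or RYGB HFD replicate 5 (adjusted p of up to 0.0879) and with library sizes alone (0.110). *Pdk4*, a brake on glucose oxidation, was lower for surgery on HFD, at -1.89 (edgeR adjusted p = 0.00655), and higher for diet after Sham, at 1.52 (adjusted p = 0.0191). The latter call was lost without Sham Chow replicate 3 or 5 or Sham HFD replicate 4 (adjusted p of up to 0.0534). *Srebf1*, the lipogenic transcription factor, was higher in Sham HFD than in Sham Chow by 0.93 (edgeR adjusted p = 0.00321). *Pck1*, the gluconeogenic enzyme, was lower there at -1.11 (edgeR adjusted p = 0.0134). *Igfbp1* had -0.35 with an interval that spanned 0 in this contrast. Diet after RYGB called 1 higher and 1 lower (3.65% of tested genes were called). They were *Srebf1* at 0.80 (edgeR adjusted p = 0.0342) and *G6pc* at -1.05 (adjusted p = 0.0256). The *Srebf1* call was lost without RYGB Chow replicate 2, 3, 4 or 5 or RYGB HFD replicate 1, 2 or 3 (up to 0.109). The *G6pc* call was lost without RYGB Chow replicate 1 or 4 or RYGB HFD replicate 2 or 3 (up to 0.0696). Both were also lost with only the 2 groups compared. The study describes these livers as taken from fasted mice.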

How the data were processed

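Poly(A)-selected liver RNA of 20 mice was sequenced, with 1 library per mouse and 5 mice per group. The authors trimmed reads with Trimmomatic 0.36, aligned them to mm10 with HISAT2 2.1.0 and deposited the raw counts per Ensembl gene that featureCounts 1.5.0-p3 assigned, without normalization. The annotation release, the strand setting and the handling of multiply mapped reads are not given in the sources used here. Symbols, positions and exon lengths came from GENCODE M21, and promoters from RefSeq (GRCm38.p6), where all 7 members matched.

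Counts were tested with edgeR 4.0.16 (R 4.3.3) as described above, and single members also by an exact permutation test over the 252 splits of 5 mice against 5 on log2(CPM + 0.5). The alternatives were DESeq2 1.42.0, limma-voom (limma 3.58.1), RLE factors, library sizes alone, no filter, a CPM of at least 5, only the 2 groups compared, the replicate number as a block, and leaving out each of the 20 mice. The procedure was tested on simulated data. The other steps ran in Python 3.11.15 (scipy 1.17.1, figures by matplotlib 3.10.9). The study itself tested with DESeq2.

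All 7 members and all 7 ligand, carrier and receptor genes are given. From the other lists, at most 3 genes with the smallest adjusted p in a contrast are named, and for each tested member the 3 genes with the highest Pearson r over the mice. Members, lists and tests were chosen with earlier results of these data known. The printed intervals come from the edgeR fits over mice and include the spread between animals. Of the 20 columns of counts, 0 were identical to another. Cholangiocyte, red cell, lymphocyte and pancreas acinar markers were also summed.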

Additional observations from a re-analysis of the deposited data

Results flagged for a closer look

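In the 28 sets of 5 mice formed by 7 members and 4 groups, 2 held a mouse far from the rest by Dixon's ratio, and chance gives about 1 in 20. *Igfbp6* in Sham HFD replicate 4 was high at 6.05 CPM, and *Igfbp7* in Sham HFD replicate 3 was low at 84.0 CPM.

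By the interaction of edgeR's quasi-likelihood model, a difference in the effect of diet between RYGB and Sham mice was called for 3 members. On the log2 scale it was 2.15 for *Igfbp2*, -1.07 for *Igfbp3* and -0.70 for *Igfbp7*. Among the other genes examined it was 0.77 for *Igf1*, 0.72 for *Igfals*, 0.49 for *Plg* (edgeR adjusted p = 0.0124), -1.81 for *Ccn4* (adjusted p = 0.0379) and -2.23 for *Pdk4* (adjusted p = 0.0458). Of the 20 fits that left out 1 mouse, 11 lost the *Igfbp3* call and 16 the *Igfbp7* call. The *Igfals* call was lost without Sham Chow replicate 5 and with library sizes alone. The *Ccn4* call was lost in 9 of the 20 fits that left out 1 mouse, those without Sham Chow replicate 3, 4 or 5, RYGB Chow replicate 1 or 2, or RYGB HFD replicate 1, 2, 3 or 5 (edgeR adjusted p of up to 0.0739), and with limma-voom or no filter (up to 0.0715). Among these fits the *Pdk4* call held only without Sham Chow replicate 2, RYGB Chow replicate 2, Sham HFD replicate 1 or RYGB HFD replicate 5, and was lost without any of the other 16 mice (edgeR adjusted p of up to 0.0853), and with the replicate block (0.0651).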

How the results depend on the processing

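The counts of called members in the 4 contrasts stayed within 1.5 times under all alternatives. The exact permutation test, adjusted over the tested genes, gave no member under 0.05 for surgery on HFD. Its values there were 0.0541 for *Igfbp3*, 0.0993 for *Igfbp5* and 0.0786 for *Igfbp7*. Its smallest possible p adjusted to 0.0541 in that contrast, so that no gene could pass. For diet after Sham it gave 0.0480 for each of the called members. The 3 members called in the interaction became 2 without a filter, and ran from 1 to 3 with each mouse left out. With the replicate number as a block the count was 1, as *Igfbp3* (edgeR adjusted p = 0.0511) and *Igfbp7* (0.0613) lost their call, and the cause was not tested. The labels do not say what the number means, and the data did not show that it paired the mice. Of 30 pairs with the same number, 5 had correlated deviations above 0.1 (median -0.01), and 3 of 20 mice correlated best with their own number. The log2 fold change of *Igfbp4* for diet after Sham turned positive at 0.10 with library sizes alone and at 0.020 without Sham Chow replicate 5, and ran from -0.092 to 0.020 with each mouse left out. Library sizes alone shifted the median of all genes to 0.12 in that contrast, -0.08 for surgery on HFD and -0.13 in the interaction. Calls over all genes then stood at 2279 higher and 554 lower (1337 and 1319 with TMM), 542 and 1497 (1050 and 971), and 151 and 597 (305 and 317), while the members' calls held. Low counts limit *Igfbp6* and *Igfbp5*, and 5 mice per group limit *Igfbp1*.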
